A study of Homo sapiens with 6 samples.

Results

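The extracellular matrix genes examined here are the collagen chains, the laminin chains, and the glycoproteins, proteoglycans and collagen modifying enzymes that are deposited or act with them. They were taken by symbol as the protein-coding genes named COL, a number, A and a number, or LAMA, LAMB or LAMC and a number, together with FN1, FBN1, FBN2, THBS1, THBS2, SPARC, TNC, NID1, NID2, HSPG2, AGRN, FBLN1, BGN, DCN, LUM, LOX, LOXL1, LOXL2, PLOD1, PLOD2, PLOD3 and SERPINH1. This gave 78 genes, all of them among the 34834 genes with a quantified transcript, and 47 of them had enough counts to be tested beside 11814 genes in all. The samples were SKOV3 cells, a human ovarian cancer cell line, so that every sample stems from a single line. In 3 samples the cells received a pool of siRNAs against DNM3OS, a long noncoding RNA, and in 3 samples a pool of non-targeting siRNAs. Both pools were given at 50 nM with a Lipofectamine reagent, and RNA was taken after 48 h. Total RNA depleted of ribosomal RNA was sequenced, and the question put to these data was how the matrix genes differed between DNM3OS knockdown and non-targeting cells.

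Collagens are trimers of alpha chains that are hydroxylated, folded with the chaperone HSP47 and cross-linked outside the cell by lysyl oxidases. Basement membranes are sheets built on laminin trimers, each of an alpha, a beta and a gamma chain, and on networks of type IV collagen, with nidogens, perlecan and agrin as linkers. Fibrillar collagens and fibronectin form the interstitial matrix, which is made mostly by fibroblasts and also by carcinoma cells that have taken on mesenchymal features.

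The libraries were shallow for genes at these levels. Estimated counts summed to between 1610937 and 1995888 per sample, and the 78 matrix genes held 4527, 2832 and 2858 counts in knockdown replicates 1 to 3 and 3397, 2988 and 3410 in non-targeting replicates 1 to 3. They made up 0.242% of the annotated counts in knockdown replicate 1 and between 0.175% and 0.196% in the other 5 samples. A count of 3 in a sample, the limit that a count of 0 allows, corresponded to between 1.395 and 2.105 CPM (counts relative to the TMM-scaled library size), for counting error alone. DNM3OS itself could not be checked in these counts, since 0 of its 6 annotated transcripts were among those quantified. The paper reported its knockdown in SKOV3 cells by qRT-PCR. The 82 ribosomal protein genes held only between 0.228% and 0.527% of the counts, least in knockdown replicate 1 and, among the controls, in non-targeting replicate 2 (0.314%). The summed TPM of ACTB, GAPDH, EEF1A1 and TUBA1B was lowest in the same library of each group, with 196, 722 and 714 in the knockdown and 1390, 480 and 1160 in the controls. A single gene outside the set, PLLP, held 15.7%, 22.2% and 22.1% of the annotated counts in the knockdown. In the controls it held 20.5%, 18.1% and 20.6%, so that it too was lowest in these libraries. Whether these gaps bear on the matrix genes was not tested. The labels do not say that samples of a group came from separate cultures, so the p-values measure only the spread between these samples. In bulk RNA, fewer cells expressing a gene and less RNA per cell cannot be told apart.

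Of the 7 epithelial markers, KRT8 (1195 to 2566 counts) and ERBB2 (311 to 872) were the highest in every sample, KRT18 held 38 to 165 counts, KRT19 19 to 184, EPCAM 16 to 32 and KRT7 4 to 12, and MUC1 was listed at 0. Their summed TPM was 3320, 4720 and 6230 in the knockdown against 3960, 3030 and 4410 in the controls. Of the fibroblast and pericyte markers, PDGFRB and FAP had at most 1 count in a sample. PDGFRA held 5 to 19 counts, THY1 15 to 34 and ACTA2 36 to 137. The summed TPM of the 5 genes was 198, 79.8 and 128 in the knockdown against 124, 150 and 116 in the controls. The 4 endothelial markers summed to between 26 and 67 counts a sample, nearly all of them on PECAM1, with VWF at no more than 1. Among the 4 leukocyte markers CD14 was listed at 0 and CD3E held 0 to 2 counts, whereas PTPRC held 91 to 148 and CD68 40 to 67. Their part in the matrix gene values was not tested.

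No matrix gene passed the threshold of an at least 2-fold change with an adjusted p below 0.05 in edgeR's exact test. The count was 0 of 47 lower in the knockdown, where 1 of 11814 genes (0.00846%) passed, and 0 of 47 higher, where 0 genes (0.0%) passed. At an unadjusted p below 0.05, 0 of 47 matrix genes were lower against 226 genes in all (1.91%), and 2 of 47 were higher against 119 (1.01%). These 2 were FN1 and LAMA2. By DESeq2 and by edgeR's quasi-likelihood test, 0 of the 47 passed as well. The direction of the 47 values split as it did for all genes, with 25 lower in the knockdown where 49.4% of all genes were lower. Their median log2 fold change was -0.03, with a range from -0.82 (LAMB3) to 0.87 (COL5A1), and the median over all tested genes was 0.00417. In CPM the knockdown samples lay entirely below the controls for 2 of the 47 genes, LAMB1 and SERPINH1, against 3.56% of all genes. They lay entirely above the controls for 1 gene, FN1, against 4.42%. In TPM the groups of LAMB1 overlapped (97.0, 62.3 and 75.5 in the knockdown against 87.6, 81.2 and 67.9). Those of SERPINH1 did too (23.4, 22.9 and 24.7 against 51.9, 21.9 and 45.4), whereas those of FN1 did not.

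**Figure D1:**
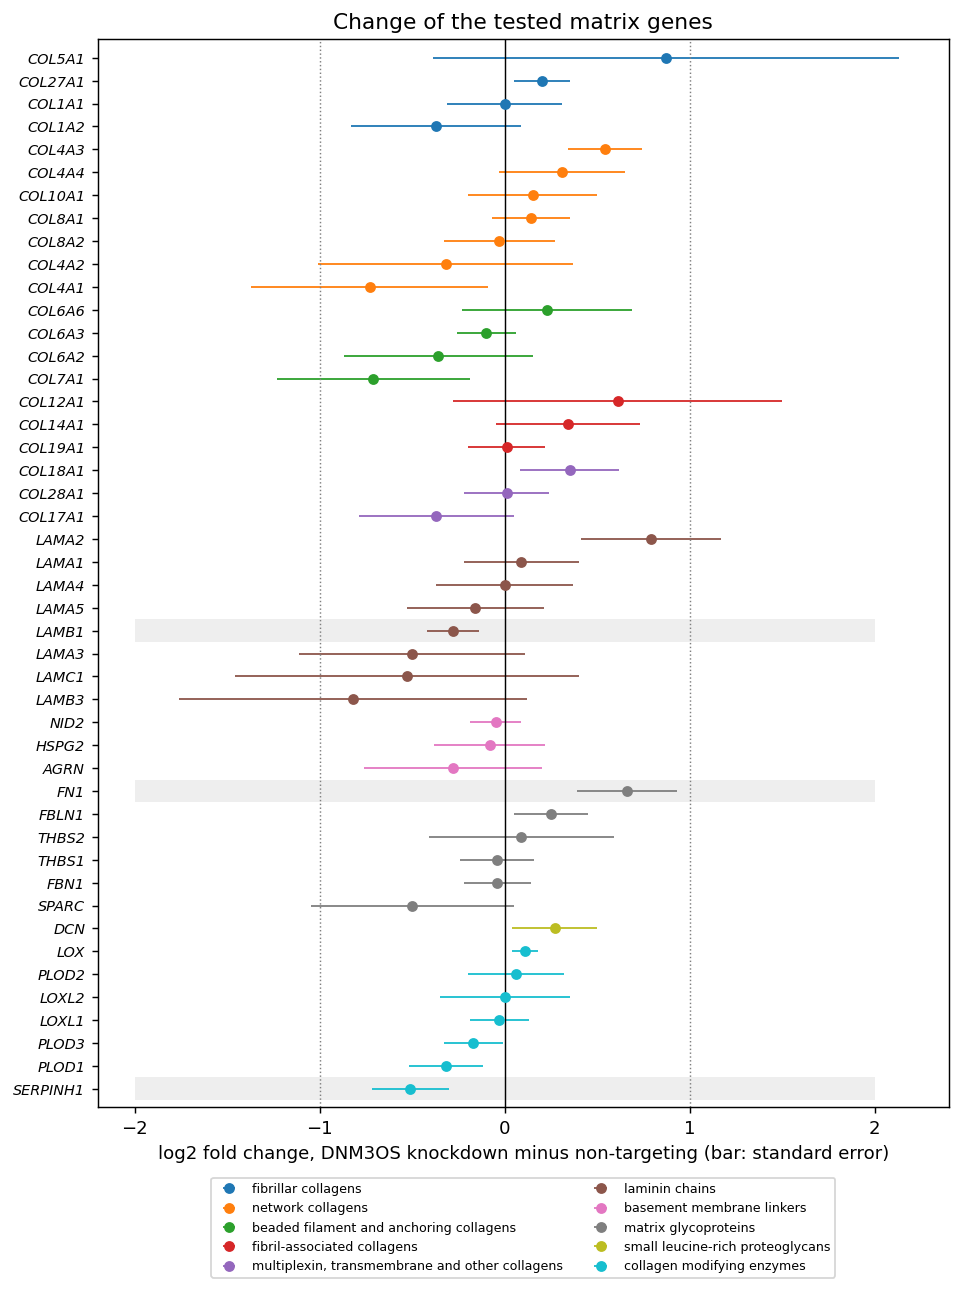
The log2 fold change (knockdown minus non-targeting, horizontal axis) of the tested matrix genes (all but 1, which is not shown), coloured by role, with its standard error from 3 and 3 samples. Grey bands mark SERPINH1, LAMB1 and FN1, whose groups did not overlap in CPM, and every point lies within the dotted lines at a 2-fold change.

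By TPM (abundance per transcript length) summed over all transcripts of a gene, the matrix genes of these cells were led by COL8A1, LAMA5, FN1, PLOD3, COL10A1 and FBLN1. Their means over the 6 samples were 175, 142, 141, 125, 114 and 107. Protein-coding transcripts held only 8.01% of the COL8A1 counts, 4.81% for LAMA5, 14.2% for FN1 and 10.1% for PLOD3. For COL10A1 and FBLN1 they held all counts, so the order is not one of coding transcripts alone. COL8A1 is a short-chain network collagen of vessel walls and the corneal Descemet's membrane. Its TPM was 220, 184 and 143 in the knockdown against 138, 216 and 148 in the controls, so that both groups covered the same range. COL10A1, a network collagen known from hypertrophic cartilage, was at 213, 69.6 and 83.5 TPM in the knockdown and at 99.2, 101 and 120 in the controls. Knockdown replicate 1 stood above the other 5 samples and the other knockdown samples below all controls. FBLN1, a glycoprotein that binds fibronectin and laminin, was at 162, 85.5 and 105 TPM against 94.4, 99.1 and 96.8, and again only knockdown replicate 1 was far from the rest. The ranges of these 6 genes over the samples overlapped, although COL8A1 was above PLOD3, COL10A1 and FBLN1 in each of the 6 samples. The classical fibrillar collagen chains were far lower, since COL1A1 had a mean of 25.1 TPM, COL1A2 of 2.56, and COL3A1 held 2 counts over the 6 samples together.

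**Figure D2:**
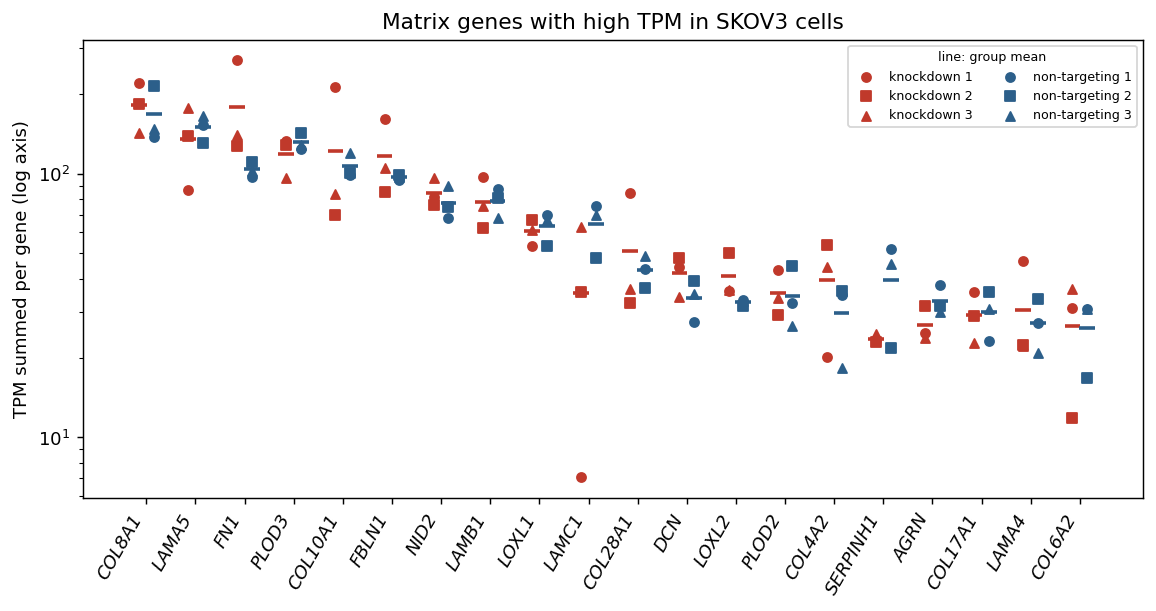
TPM per sample (log axis) of 20 of the matrix genes with the highest means, with a line at each group's mean. Groups overlap for most genes, knockdown replicate 1 (red circles) is the highest of the 6 for FN1, COL10A1 and FBLN1, and it is far below the others for LAMC1 at 7.05 TPM.

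The laminin chains gave 7 of 9 tested genes with a lower value and 2 with a higher value in the knockdown, with a median log2 fold change of -0.16 and 0 past the threshold. LAMB1 and LAMC1 are the beta and gamma chains of the common laminins of epithelial and endothelial basement membranes, and LAMB3 is the beta chain of laminin-332, the anchor of stratified epithelia. LAMB1 (chromosome 7, 107923799 to 108003213, minus strand, GRCh38) was at 56.3, 41.9 and 51.9 CPM in the knockdown and at 67.2, 57.6 and 57.6 in the controls. All 3 knockdown values lay below all 3 controls, but the lowest control and the highest knockdown sample were close, and the log2 fold change was -0.28 ± 0.14 (SE; edgeR's exact test, adjusted p = 1.0; exact two-sided permutation test, p = 0.1, the smallest that 3 against 3 samples allow). It was -1.19 with protein-coding transcripts alone, which hold 19.9% of the LAMB1 counts, -0.03 with length-scaled TPM counts, and -0.17 without knockdown replicate 2. LAMC1 (chromosome 1, 183023420 to 183145592, plus strand, GRCh38) was at 9.77, 68.9 and 63.2 CPM in the knockdown and at 83.2, 41.2 and 79.4 in the controls. LAMB3 (chromosome 1, 209614870 to 209652425, minus strand) was at 2.79, 17.6 and 19.6 CPM against 28.5, 9.17 and 31.8. For both genes knockdown replicate 1 was the lowest of the 6 samples, at 0.142 times the median of the other 5, and non-targeting replicate 2 was the lowest control. Their log2 fold changes, -0.53 ± 0.93 for LAMC1 and -0.82 ± 0.94 for LAMB3, were smaller than their standard errors, and without knockdown replicate 1 they were -0.03 and -0.31. LAMA3, an alpha chain of laminin-332, was looked at after the values of LAMB3 were seen. With 11.6, 33.1 and 41.4 CPM against 45.6, 24.9 and 49.4, it was likewise lowest in knockdown replicate 1 and, among the controls, in non-targeting replicate 2.

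LAMA5, the alpha chain of most adult epithelial and vascular basement membranes and the highest laminin gene by TPM, was at 45.1, 81.0 and 107 CPM in the knockdown and at 87.2, 77.3 and 95.3 in the controls. Knockdown replicate 1 was again the lowest, and the log2 fold change was -0.16 ± 0.37, or 0.13 without that library. LAMA2, the alpha chain of muscle and nerve laminin, was at 30.2, 18.9 and 14.7 CPM against 14.8, 14.4 and 8.24. Its groups overlapped in CPM by a small margin, since the lowest knockdown value lay just under the highest control. In TPM they did not overlap, with 17.1, 12.6 and 12.8 in the knockdown against 4.09, 5.57 and 10.7. The log2 fold change of 0.79 ± 0.38 had an adjusted p = 1.0 in edgeR's exact test. It was 0.44 without knockdown replicate 1, and 1.05 with length-scaled TPM counts (adjusted p = 0.941 in edgeR's exact test).

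Type IV collagen was represented by COL4A1 and COL4A2, the chains found in nearly all basement membranes, and by COL4A3 and COL4A4, chains of more restricted tissues such as the kidney glomerulus. Mean TPM over the 6 samples was 34.5 for COL4A2, 14.3 for COL4A3, 6.88 for COL4A1 and 3.42 for COL4A4. COL4A1 (chromosome 13, 110148963 to 110307157, minus strand) was at 6.05, 23.6 and 26.0 CPM in the knockdown and at 37.0, 22.9 and 30.6 in the controls. COL4A2 (chromosome 13, 110305812 to 110513209, plus strand) was at 8.84, 29.7 and 34.4 CPM against 26.8, 17.7 and 45.3. Knockdown replicate 1 was the lowest sample for both, at 0.233 and 0.297 times the median of the others, and non-targeting replicate 2 was the lowest control for both. The log2 fold change was -0.73 ± 0.64 for COL4A1 and -0.32 ± 0.69 for COL4A2, and without knockdown replicate 1 the values were -0.28 and 0.11. COL4A3 and COL4A4 went the other way and were highest of the 6 samples in knockdown replicate 1, at 24.7 and 37.2 CPM. Their log2 fold changes were 0.54 ± 0.20 and 0.31 ± 0.34. The 9 network collagens as a group gave 3 lower and 4 higher values among 7 tested. All 3 tested basement membrane linkers (NID2, HSPG2 and AGRN) had lower values, between -0.28 and -0.05 on the log2 scale, and none passed the threshold.

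The samples that set these values apart were the same for several basement membrane genes and for the ribosomal protein and housekeeping genes, namely knockdown replicate 1 and, among the controls, non-targeting replicate 2. Over the 47 matrix genes knockdown replicate 1 was the lowest of the 6 samples in 14 (29.8%), against 29.8% of all genes, and the highest in 13 (27.7%), against 28.0% of all genes. Both shares were near those of all tested genes. Of the 9 tested laminin chains, 4 were lowest and 3 highest in knockdown replicate 1. Of the 7 tested network collagens, 2 were lowest and 3 highest there. The share of all genes with low values in both libraries was not determined. When both libraries were left out, the log2 fold changes were -0.28 for LAMC1, -0.67 for LAMB3, -0.43 for COL4A1 and -0.15 for COL4A2, with adjusted p values from edgeR's exact test between 0.471 and 1.0. In that comparison 0 matrix genes passed in either direction while 31 genes in all passed as lower and 8 as higher.

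**Figure D3:**
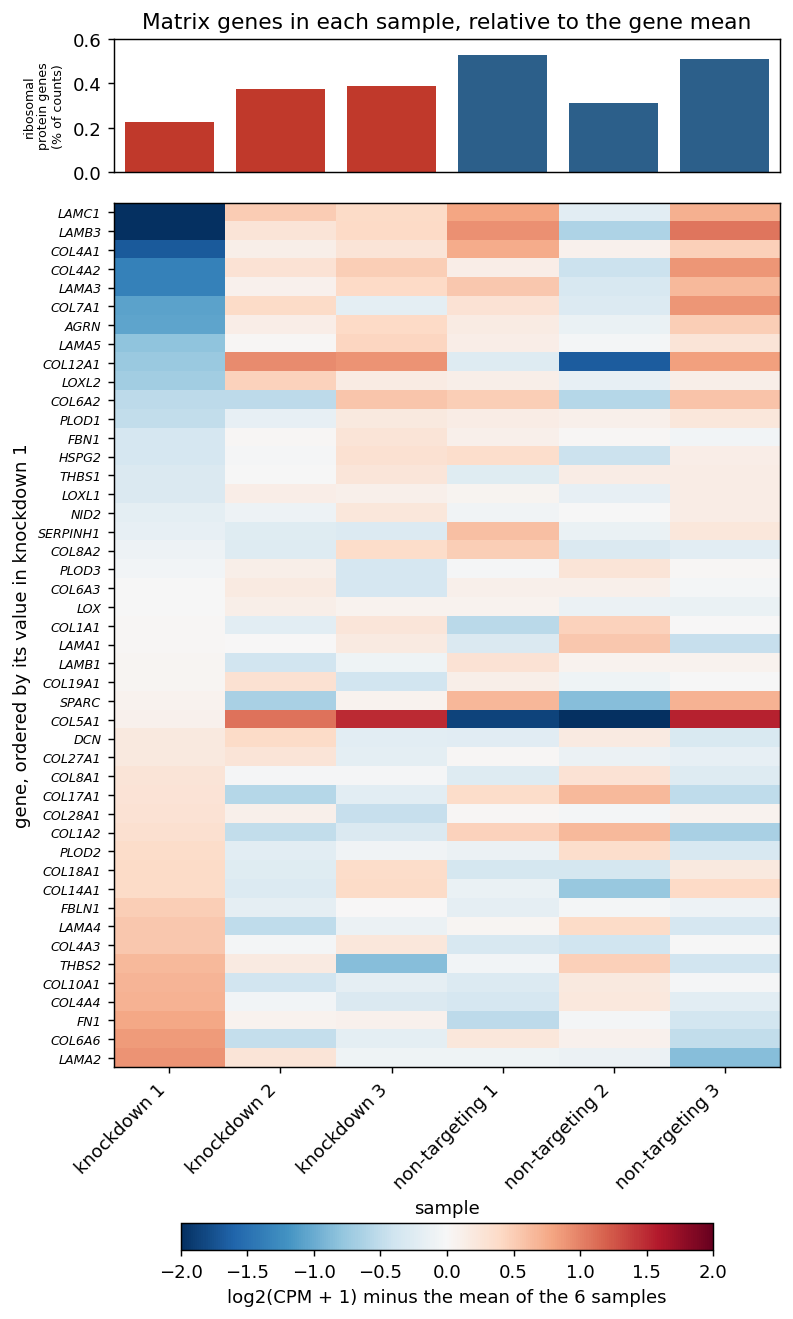
The tested matrix genes (all but 1) in each sample as log2(CPM + 1) minus the mean of the 6 samples, ordered by the value in knockdown replicate 1, under each library's percentage of counts from ribosomal protein genes. Knockdown replicate 1 holds the lowest values for LAMC1, LAMB3, COL4A1 and COL4A2 and high values for LAMA2 and FN1, and it has the lowest ribosomal protein share (0.228%).

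Promoter sequence is shown for LAMC1, LAMB3, COL4A1 and COL4A2, which were low in the same 2 libraries, and for FN1, which was not. Other basement membrane genes lowest in these libraries within their groups, such as LAMA3, LAMA5 and AGRN, are not shown. The RefSeq promoter table held 59 of the 78 genes. The sequences are the 250 bases before the annotated start (RefSeq, GRCh38.p14), written in the direction of the gene, and for COL4A1 and COL4A2, which are transcribed away from each other, the 126 bases between their starts, written in the direction of COL4A2. Capitals mark matches on either strand, overlapping ones included, to a GC box (GGGCGG) or a CCAAT box (CCAAT).

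LAMC1, chr1:183023170-183023419, plus strand: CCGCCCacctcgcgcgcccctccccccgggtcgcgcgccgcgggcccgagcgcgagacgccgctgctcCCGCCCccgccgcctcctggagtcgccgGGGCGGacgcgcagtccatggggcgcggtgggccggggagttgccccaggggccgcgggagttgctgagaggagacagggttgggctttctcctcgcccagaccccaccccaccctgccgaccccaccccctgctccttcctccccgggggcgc
LAMB3, chr1:209652426-209652675, minus strand: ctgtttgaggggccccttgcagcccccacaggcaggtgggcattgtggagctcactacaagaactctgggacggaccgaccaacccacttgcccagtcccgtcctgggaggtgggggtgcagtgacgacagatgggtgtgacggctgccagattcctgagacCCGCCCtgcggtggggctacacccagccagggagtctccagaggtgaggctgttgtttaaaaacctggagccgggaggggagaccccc
COL4A1-COL4A2, chr13:110307158-110307283, plus strand: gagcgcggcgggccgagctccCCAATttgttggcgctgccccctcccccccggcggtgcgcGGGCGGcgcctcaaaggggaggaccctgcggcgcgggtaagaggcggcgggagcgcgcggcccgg
FN1, chr2:215436069-215436318, minus strand: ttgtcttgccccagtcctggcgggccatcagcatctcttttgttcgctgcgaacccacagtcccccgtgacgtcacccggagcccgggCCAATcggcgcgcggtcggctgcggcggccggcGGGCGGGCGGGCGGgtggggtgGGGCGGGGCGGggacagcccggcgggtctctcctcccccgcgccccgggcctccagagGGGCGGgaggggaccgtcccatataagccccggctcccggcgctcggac

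A GC box was present in 42.6% of all 250-base windows and in 34.6% of 126-base windows, out of 34796 promoters. LAMC1 held 3 matches, LAMB3 1, the COL4A1-COL4A2 interval 1 and FN1 6. A CCAAT box was found in FN1 and in the COL4A1-COL4A2 interval, and in 32.0% and 21.1% of all windows of these lengths. Neither TATAAA nor the AP-1 letters TGANTCA, found in 10.8% and 6.59% of 250-base windows, occurred in these 4 sequences. These are matches of letters only.

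FN1 (chromosome 2, 215360440 to 215436073, minus strand) was the matrix gene with the lowest p, 0.016 before adjustment in edgeR's exact test. It encodes fibronectin, the glycoprotein that links collagens to integrins and a common marker of mesenchymal cells. Its counts were 479, 203 and 196 in the knockdown and 158, 192 and 171 in the controls, which gave 223, 137 and 138 CPM against 90.0, 126 and 101. All knockdown samples lay above all controls, the 2 closest by a small margin, and knockdown replicate 1 stood well above the others. The log2 fold change was 0.66 ± 0.27 (edgeR's exact test, adjusted p = 1.0, and exact permutation test, p = 0.1). Across the other settings tried it ranged down to 0.39, without knockdown replicate 1, and the lowest adjusted p was 0.112, without knockdown replicate 1 and non-targeting replicate 2. The annotation placed 85.6% of the FN1 counts on retained intron transcripts and 14.2% on protein-coding ones.

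The other matrix glycoproteins gave no call. SPARC, a collagen-binding glycoprotein of remodelling tissue, was at 8.37, 4.73 and 8.42 CPM in the knockdown and at 13.1, 3.93 and 13.5 in the controls, with the lowest value in a control. THBS1, which activates latent TGF-beta and inhibits vessel growth, was at 42.3, 52.0 and 61.7 CPM against 43.9, 57.6 and 57.6. Its log2 fold change was -0.04 ± 0.20, and the groups covered the same range. FBLN1 had a log2 fold change of 0.25 ± 0.20. TNC was listed at 0 in all samples, and FBN2 held 1 count in 1 sample. Of the small leucine-rich proteoglycans only DCN was tested, while BGN and LUM held 8 and 5 counts over all samples.

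**Figure D4:**
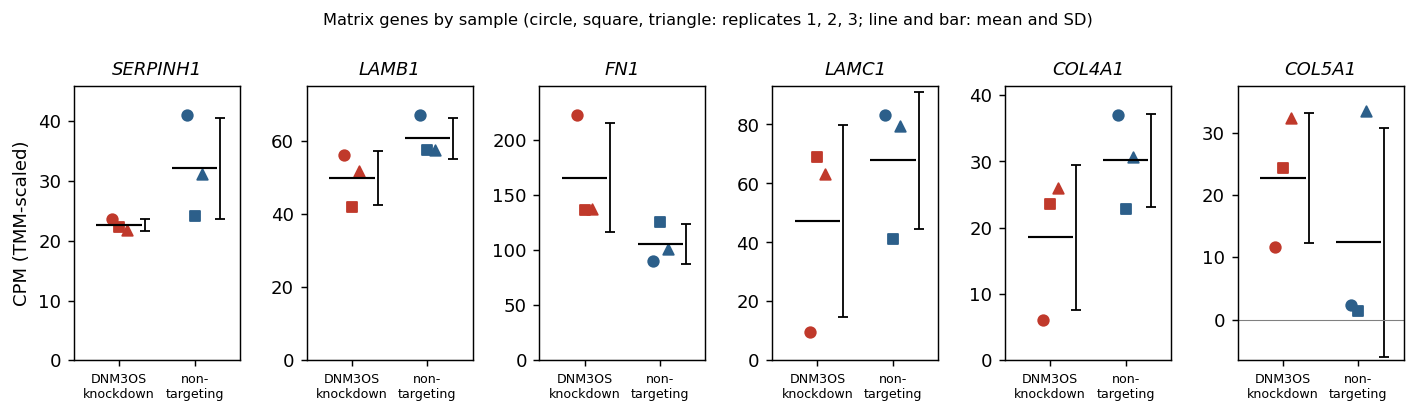
CPM of 6 matrix genes in each sample, with the mean (line) and SD (bar) of each group of 3. The groups of SERPINH1, LAMB1 and FN1 do not overlap, LAMC1 and COL4A1 are low in knockdown replicate 1 (circle), and COL5A1 is near 0 in non-targeting replicates 1 and 2.

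Among the fibrillar collagens 4 of 11 were tested, 1 lower and 3 higher, with a median log2 fold change of 0.10. COL1A1, the main chain of type I collagen, was at 8.84, 7.43 and 10.5 CPM in the knockdown and at 5.70, 12.4 and 8.82 in the controls. COL1A2, its partner chain, was at 10.2, 5.40 and 6.32 CPM against 11.4, 13.1 and 4.71. In both genes the controls spread over the whole knockdown range. COL5A1 (chromosome 9, 134641803 to 134844843, plus strand), a chain of type V collagen, which starts collagen fibrils, had 25, 36 and 46 counts in the knockdown and 4, 2 and 57 in the controls. Non-targeting replicates 1 and 2 were far below and non-targeting replicate 3 above every knockdown sample, and the log2 fold change was 0.87 ± 1.26. Without non-targeting replicate 3 it was 3.56 with an adjusted p of 0.00694 in edgeR's exact test, and COL5A1 was then the single gene of 12189 (0.0082%) to pass as higher.

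The COL5A1 counts lay mostly on 1 transcript. This transcript, COL5A1-201, 8471 bases long, held 85.7% of the COL5A1 counts, with 16, 31 and 43 in the knockdown against 0, 0 and 55 in the controls. After these values were seen, the 17741 quantified transcripts that are not in the annotation were searched for the opposite pattern, at least 20 counts in non-targeting replicates 1 and 2 and under 1 in the other 4 samples. Exactly 1 was found. It was 8437 bases long and held 42 and 28 counts in non-targeting replicates 1 and 2. Summed with COL5A1-201 it gave 16, 31 and 43 counts in the knockdown and 43, 28 and 55 in the controls. The groups overlapped in the sum, as they did for COL5A1-201 alone. The search rule required at least 20 counts in the 2 samples where COL5A1-201 had 0. Higher sums in these samples therefore followed from the rule and are not a separate result. How many annotated transcripts show the same pattern was not counted. The sources used here do not give the gene of the 8437-base transcript, so it was not added to COL5A1. Whether reads were shared between the 2 transcripts was not tested.

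The remaining collagens ranged from 0 counts to the 433 of COL28A1 over the 6 samples together, followed by COL6A3 with 408 and COL18A1 with 367. These 3 had log2 fold changes of 0.01 ± 0.23, -0.10 ± 0.16 and 0.35 ± 0.27, and their groups overlapped. COL12A1, a fibril-associated collagen of tendon and tumour stroma, was at 8.37, 29.0 and 28.1 CPM in the knockdown and at 12.0, 3.93 and 26.5 in the controls, with low values in both groups (log2 fold change 0.61 ± 0.89). COL7A1, which forms the anchoring fibrils beneath epithelia, held only 4, 10 and 6 counts against 11, 6 and 17, and its log2 fold change was -0.71 ± 0.52. Of 6 beaded filament and anchoring collagens 4 were tested, with a median of -0.23. Of 10 fibril-associated collagens 3 were tested, all with higher values and a median of 0.34, and of 8 multiplexin, transmembrane and other collagens 3 were tested, with a median of 0.01.

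All 7 collagen modifying enzymes were tested, with 4 lower and 3 higher values and a median log2 fold change of -0.03. SERPINH1 (chromosome 11, 75562056 to 75572783, plus strand) encodes HSP47, the endoplasmic reticulum chaperone of procollagen. It was at 23.7, 22.3 and 21.8 CPM in the knockdown and at 41.0, 24.2 and 31.2 in the controls. The knockdown samples were tightly grouped just under the lowest control, non-targeting replicate 2, and the log2 fold change was -0.51 ± 0.21 (edgeR's exact test, adjusted p = 1.0, and exact permutation test, p = 0.1). It was -0.30 without non-targeting replicate 1. PLOD2, the lysyl hydroxylase that acts on collagen telopeptides, was at 95.8, 64.2 and 70.9 CPM against 68.4, 95.6 and 59.4. PLOD3, a lysyl hydroxylase that also glycosylates collagen, was at 37.7, 42.5 and 30.9 CPM against 38.7, 47.1 and 40.0. Both overlapped between the groups, with log2 fold changes of 0.06 ± 0.26 and -0.17 ± 0.16. The lysyl oxidases LOX, LOXL1 and LOXL2 lay between -0.03 and 0.11.

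Genes whose products process or bind the same proteins gave no call either. Of 25 genes for collagen hydroxylation, folding, processing and export 19 were tested, with 11 lower and 8 higher values, a median log2 fold change of -0.06 and 0 past the threshold. The 3 furthest from 0 were ADAMTS2, a procollagen N-proteinase (0.82 ± 0.27, with 11.6, 8.10 and 7.72 CPM against 3.99, 7.20 and 4.71), P4HB, the beta subunit of prolyl hydroxylase (-0.69 ± 0.66), and P4HA2, an alpha subunit of it (0.54 ± 0.28). Of 26 matrix receptors 20 were tested, with 13 lower and 7 higher values, a median of -0.10 and 0 past the threshold. CD44, a receptor of hyaluronan and collagen, was at 6.51, 14.2 and 12.6 CPM in the knockdown and at 25.6, 9.17 and 31.8 in the controls. Its lowest values were again in knockdown replicate 1 and, among the controls, non-targeting replicate 2, and the log2 fold change of -1.02 ± 0.60 had an adjusted p = 1.0 in edgeR's exact test. ITGB1, the beta subunit of most collagen, laminin and fibronectin receptors, was at 42.3, 144 and 138 CPM against 183, 104 and 182 with the same 2 libraries lowest, and ITGA1, its partner for collagen, had a log2 fold change of 0.50 ± 0.26.

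What a gene sum measured differed between the matrix genes. Among the tested ones 13 of 47 (27.7%) had over 50% of their counts on transcripts annotated as retained introns, and among the other tested protein-coding genes 1703 of 10565 (16.1%) did. This difference was not tested. The share was 93.7% for PLOD2, 89.6% for PLOD3, 80.1% for LAMB1, 91.8% for COL1A1 and 98.9% for COL1A2, whereas COL4A1, COL10A1, FBLN1, LAMB3, SERPINH1 and LAMA2 had all their counts on protein-coding transcripts. LAMA5 and COL8A1 had 91.9% and 92.0% of theirs on transcripts without a defined coding sequence. Over all matrix genes the share on retained introns was 29.4%, 24.5% and 24.3% in the knockdown against 22.7%, 28.8% and 21.9% in the controls. It was highest in the libraries with the lowest ribosomal protein share, knockdown replicate 1 and non-targeting replicate 2. With protein-coding transcripts alone, 33 matrix genes could be tested, the median log2 fold change was 0.07 and 0 passed.

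**Figure D5:**
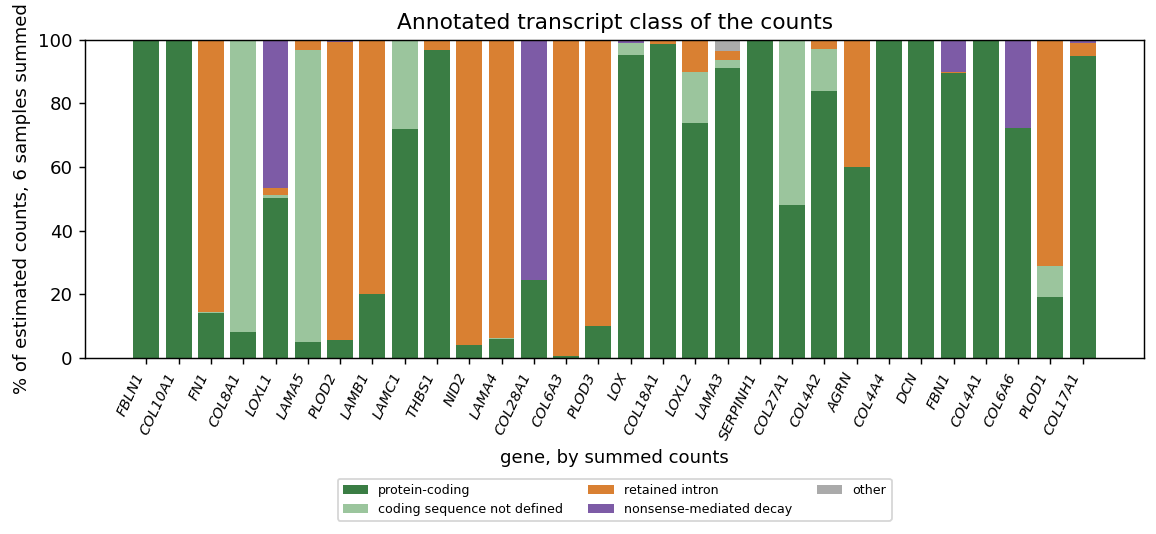
Share of the estimated counts (6 samples summed) by annotated transcript class for 30 of the tested matrix genes with the most counts. Retained intron transcripts hold over 80% for FN1, PLOD2, LAMB1, NID2, LAMA4, COL6A3 and PLOD3, and transcripts without a defined coding sequence over 90% for COL8A1 and LAMA5.

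The library kit was stranded, and whether the quantification used strand is not given in the sources used here, so reads of overlapping genes on opposite strands may not be separable. Whether the gene sums count sense reads alone was not tested, and this applies to every value given here. Exons of a gene on the opposite strand covered some exonic bases of 27 of the 78 matrix genes and over 10% of them in 5, among which were THBS2 (31.2%, under THBS2-AS1), NID2 (30.7%, under RTRAF) and COL18A1 (18.5%, under SLC19A1). Among the genes named above by values, LAMA5 had 2.53%, LAMB1 2.60%, LAMA2 2.99%, THBS1 7.58% and SPARC 4.12%. HSPG2 had 11.7%, PLOD3 1.8%, COL4A2 0.493% and COL5A1 0.484%, and FN1, LAMC1, LAMB3, COL4A1 and SERPINH1 none. Transcripts with any such base held a larger share of the counts: 96.6% in LAMA5, 50.4% in LAMB1, 100% in LAMA2, 99.1% in THBS1 and 92.2% in SPARC. They held 89.1% in HSPG2, 32.1% in PLOD3, 72.6% in COL4A2 and 85.7% in COL5A1. How many of these counts came from the opposite strand was not tested. Only exons of genes on the opposite strand were compared, and their introns were not. A matrix gene without such exonic bases, COL10A1 among them, may therefore still lie within an intron of another gene.

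The 31 untested genes held between 0 and 57 counts over the 6 samples together. COL21A1, COL22A1, COL25A1, COL5A3, COL6A5 and TNC were listed at 0 in every sample. The highest were LAMB4, COL9A1, LAMB2, LAMC3 and COL11A1 with 57, 52, 47, 41 and 39 counts. LAMB2, the beta chain of muscle and glomerular laminin, had 2, 5 and 4 counts in the knockdown and 19, 6 and 11 in the controls. All its knockdown values lay below all controls, which was seen only after its values were examined. In CPM the same held for COL5A2 and COL6A1, whereas BGN and COL20A1 lay above all controls. These genes held at most 12 counts each over the 6 samples, and the share among all untested genes was not determined. With no filter on low counts, 72 of the 78 genes could be tested, and 0 of them passed.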

How the data were processed

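The authors sequenced total RNA libraries of SKOV3 cells, prepared with a stranded, ribosomal RNA-depleting kit. Reads were assigned by the authors to Ensembl transcripts (GRCh38) with kallisto 0.43.0, and each deposited file holds a raw estimated count and a TPM per transcript. The strand option is not given in the sources used here.

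For this report, transcripts were matched by identifier to GENCODE release 44 (155518 of 173259, holding between 93.62% and 95.22% of a sample's counts). Estimated counts and TPM were summed per gene, and counts were rounded to whole numbers. Genes were filtered with edgeR's filterByExpr (minimum count 10), scaled by TMM and tested over all genes with the exact test of edgeR 4.0.16 (R 4.3.3). P-values were adjusted by the Benjamini-Hochberg method. This test and the threshold (2-fold or more, adjusted p below 0.05) follow the study's methods. The outcome differed, since the paper reported genes lower in the knockdown that were enriched for focal adhesion and ECM-receptor interaction. Here 1 of 11814 genes passed as lower, and the reason for this difference was not tested. The paper also ran a gene set enrichment on genes ranked by fold change. In addition it combined these data with patient data sets in a meta-analysis, which reported reductions of collagen family genes at lower DNM3OS. Neither was repeated here. CPM used TMM-scaled library sizes. Standard errors used the SD of log2 CPM (prior count 2) within each group, and permutation tests enumerated all assignments of the 6 samples. The scripts were tested on simulated counts.

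Samples were grouped by their labels. The lowest chi-square per degree of freedom between samples was 2.04, so no library appeared to be deposited more than once. The genes and lists were chosen with earlier results of these data known. Genes were named if they passed the threshold, were among the 6 highest by mean TPM, the 4 largest decreases or the 4 largest increases, had groups that did not overlap in CPM, or were on a short list (COL1A1, COL1A2, COL3A1, COL4A1, COL4A2, FN1, LAMA5, LAMB1, LAMC1, SPARC, THBS1, SERPINH1 and PLOD2). The 3 furthest from 0 were named in the partner and receptor lists. LAMA3, LAMB2, COL4A3, COL4A4, COL5A2, COL6A1, COL20A1, BGN, COL28A1, COL6A3, COL18A1 and the genes named in the accounts of transcript class and opposite strand were added after their values were seen. The alternatives were the quasi-likelihood test (no block, or blocked by replicate number), DESeq2 1.42.0, RLE scaling, no filter, length-scaled TPM counts, protein-coding transcripts only and leaving out each sample. Leaving out the library of each group with the lowest ribosomal protein share was added after seeing the data. The values of 1 gene of the set are counted in the totals but not reported here.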

Additional observations from a re-analysis of the deposited data

How the results depend on the processing

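No matrix gene passed the threshold under any of the 14 other settings, except COL5A1 without non-targeting replicate 3 (log2 fold change 3.56, adjusted p = 0.00694 in edgeR's exact test). The number of matrix genes passing as higher therefore ranged from 0 to 1 when single samples were left out, and as lower from 0 to 0. Over all genes, 0 passed as lower with the quasi-likelihood test and with DESeq2, 2 with no filter, 4 (and 2 higher) with length-scaled TPM counts, 3 (and 2 higher) with protein-coding transcripts only, from 0 to 3 lower and from 0 to 1 higher with single samples left out, and 31 lower and 8 higher without knockdown replicate 1 and non-targeting replicate 2, a setting chosen after seeing the data. The median log2 fold change of the matrix genes was 0.048 with length-scaled TPM counts, 0.07 with protein-coding transcripts, and from -0.064 to 0.019 with single samples left out.

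Equal replicate numbers showed no common direction: their deviations from the group means correlated at -0.396, -0.336 and 0.233. With 3 samples in each group, these values cannot show whether samples of equal number were handled together. With the replicate number as a block, the quasi-likelihood test gave 0 genes lower, as it did without the block, and a median of -0.032 for the matrix genes.

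Several named genes without a call changed sign, and the cause was not tested. COL1A1 was at -0.01 with DESeq2 and -0.004 with RLE scaling. With length-scaled TPM counts COL12A1 was at -0.33, COL1A2 at 0.18, COL4A2 at 0.43 and COL7A1 at 0.50, and with protein-coding transcripts THBS1 was at 0.01. With single samples left out, COL10A1 ranged from -0.25 to 0.35, COL1A1 from -0.25 to 0.30, COL4A2 from -0.66 to 0.11, LAMA5 from -0.47 to 0.13, PLOD2 from -0.13 to 0.28 and THBS1 from -0.17 to 0.11. Without knockdown replicate 1 and non-targeting replicate 2, COL10A1 was at -0.12, LAMA5 at 0.06 and THBS1 at 0.18. Depth limits the low genes most: the filter removed 31 of the 78, and with no filter 72 could be tested.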
